A study of Mus musculus with 24 samples.

Results

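The dorsal root was compared between 2 ages, 3 weeks after birth and the day of birth. The members were chosen from the labels, as the arrays of afferent nerve (AN) fibres labelled 3 W and P0, and they were 6 of the 24 arrays of the series, 3 at each age. Efferent (ventral root) and afferent (dorsal root) fibres of the mouse were profiled on the day of birth and at 1, 3 and 5 weeks, giving 8 groups of 3 arrays, and 1 question of the study was how expression in the roots changes with age. Each array held Cyanine-3 labelled cRNA of 1 sample on a 60-mer oligonucleotide array.

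Both groups came from C57BL/6 mice with no transgene or treatment given in the labels, which name age as their difference. The P0 AN group was taken on the day of birth and the 3W AN group at 3 weeks. The fibres were cut from the roots of spinal segments L4 to L6 under a dissecting microscope. The study used 9 animals of both sexes per time point, pooled the fibres of a group in 1 tube and ran 3 independent experiments, and the labels do not tie an array to an animal. A root holds axons, the Schwann cells around them, fibroblasts, vessels and immune cells, and it was not sorted, so that fewer cells of a type and less RNA per cell cannot be told apart in any value below.

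In the days around birth Schwann cells of a mouse root are still dividing while they sort axons 1 by 1, and they then wrap the larger axons with myelin. Myelin is a stack of membrane that holds a few very abundant proteins, such as PMP22 and MBP, and it is rich in cholesterol and galactolipids that the cell makes itself. By 3 weeks most large axons of a root carry compact myelin with nodes of Ranvier, and the Schwann cells have left the cell cycle. Sensory neurons keep their cell bodies in the dorsal root ganglion, just distal to the root.

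Sox10 and Prx, markers of Schwann cells, were above background on all 6 arrays. Before any result, 1 array has to be set apart. Over the kept probes the 3W AN replicates 1 and 2 correlated at r = 0.992, whereas replicate 3 reached 0.964 with replicate 1 and 0.960 with replicate 2. The 3 P0 arrays correlated at 0.981 to 0.984, and arrays of different ages at 0.895 to 0.925. Replicate 3 carried more signal from genes of sensory neurons, motor neurons and skeletal muscle, given below with their values. Each count of called list members that follows is also given without it where it changes. The 3 W arrays shared 1 slide and 1 scan, the P0 arrays lay on 2 other slides, and so slide and age cannot be told apart within these 6 arrays. Median spot signals were 61.1 to 73.5 at 3 W and 123 to 191 at P0, over a local background of 27 to 46. Between 55.1% and 71.3% of gene spots were well above background, the lowest share on P0 AN replicate 3. A fit of all 24 arrays with the slide as a block, in which arrays of the other ages bridge the slides, is given as an alternative for some lists and genes. Of 349 called genes of the lists and named genes, 255 kept their call in it, 84 lost it and 10 turned direction. A list given without this fit was thus not necessarily unchanged by it. The slide of the 3 W arrays was bridged only by 5W AN replicate 3 and 5W EN replicate 3, with median spot signals of 45.4 and 48.2. A call kept or lost in this fit thus rests on those arrays and does not by itself separate slide from age. The number of arrays limits the precision, and since nothing ties arrays to animals, p values measure only the spread between these arrays.

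After the probes were limited to those well above background on all 3 arrays of either age, 34106 probes remained, of which the brightest probe was taken for each of 19284 genes. A gene was called when its Benjamini-Hochberg adjusted p value in limma was below 0.05 and its fold change above 2. By this rule 5253 genes (27.2% of those tested) were called, 2978 of them higher at 3 W (15.4%) and 2275 lower (11.8%). On the level of probes, 9389 were called (27.5%), 5126 higher (15.0%) and 4263 lower (12.5%). Without 3W AN replicate 3, 3171 genes were higher (16.4%) and 2806 lower (14.6%), and 4862 of the 5253 genes called with all arrays were called in the same direction. Another 745 genes were called lower only without that array, and 370 higher. Of the called genes, 284 were above background on no array of the dimmer age. Kept probes of 114 genes were called in opposite directions, and the call of a gene is that of its brightest probe only. All values below are log2 units of the deposited, quantile normalized signal, and differences are 3 W minus P0 with their standard error (SE) from limma.

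**Figure D1:**
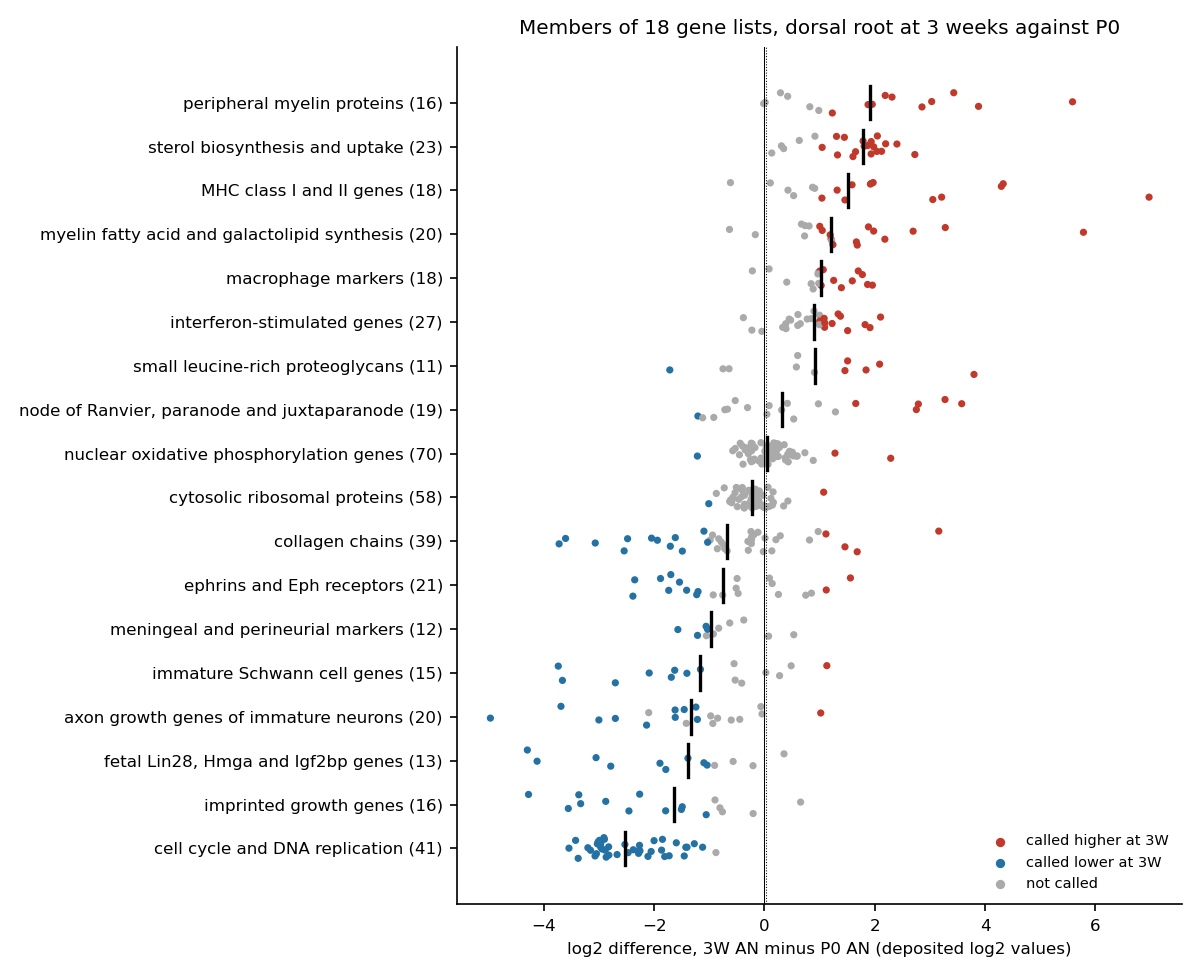
Each point is the log2 difference (x axis, 3W AN minus P0 AN) of 1 gene, in 18 gene lists with the number of kept genes in brackets; red points were called higher, blue points lower, grey points not called. The black bar is the list median and the dotted line the median of all 19284 genes (0.04). Nearly all 41 cell cycle genes lie to the left with a median of -2.53, while the medians of the myelin protein and sterol lists lie at 1.92 and 1.79.

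Genes of myelin proteins were higher at 3 W. Of 16 members, 10 were called higher and 0 lower, with a median difference of 1.92 against 0.04 over all kept genes, beside the 15.4% of all genes called higher. The largest rise was that of Drp2, dystrophin-related protein 2, which binds periaxin beneath the outer Schwann cell membrane. Drp2 read 10.03, 8.89 and 9.37 at P0 and 15.17, 15.14 and 14.73 at 3 W, a difference of 5.59 ± 0.31 (adjusted p = 0.000158). Mbp, which seals the cytoplasmic faces of the myelin membrane, read 12.96, 12.66 and 13.42 at P0 and 16.56, 16.49 and 16.29 at 3 W, a difference of 3.43 ± 0.22 (adjusted p = 0.000194). In both genes the 2 ages were far apart and every 3 W array was above every P0 array. Ncmap, a membrane protein of non-compact myelin, rose by 3.88 ± 0.35. Gjb1, the connexin 32 of gap junctions within the myelin sheath, rose by 3.03 ± 0.38; at P0 it read 12.40, 10.92 and 11.83, and at 3 W 15.04, 14.71 and 14.51.

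Pmp22, a membrane protein of compact myelin, and Prx (periaxin, which organizes the outer membrane) did not pass the rule on their brightest probe, while a dimmer probe of each was called higher. Pmp22 read 17.77, 17.10 and 17.71 at P0 on its brightest probe and 14.13, 13.18 and 13.88 on its dimmer one, which read 17.14, 16.77 and 16.74 at 3 W. On both Pmp22 probes every 3 W array was above every P0 array. Pmp22 differed by 0.99 ± 0.21 on a probe that read 18.51 on each 3 W array and by 3.16 ± 0.28 on its dimmer probe, and Prx by 0.29 ± 0.18 and by 2.20 ± 0.21. The bright probes of both genes read 16.73 or more on all 6 arrays, and no spot was saturated. Whether they had reached a ceiling was not tested. Mag, an adhesion protein of the inner membrane facing the axon, differed by 0.82 ± 0.26 on its brightest probe, under the fold threshold.

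**Figure D2:**
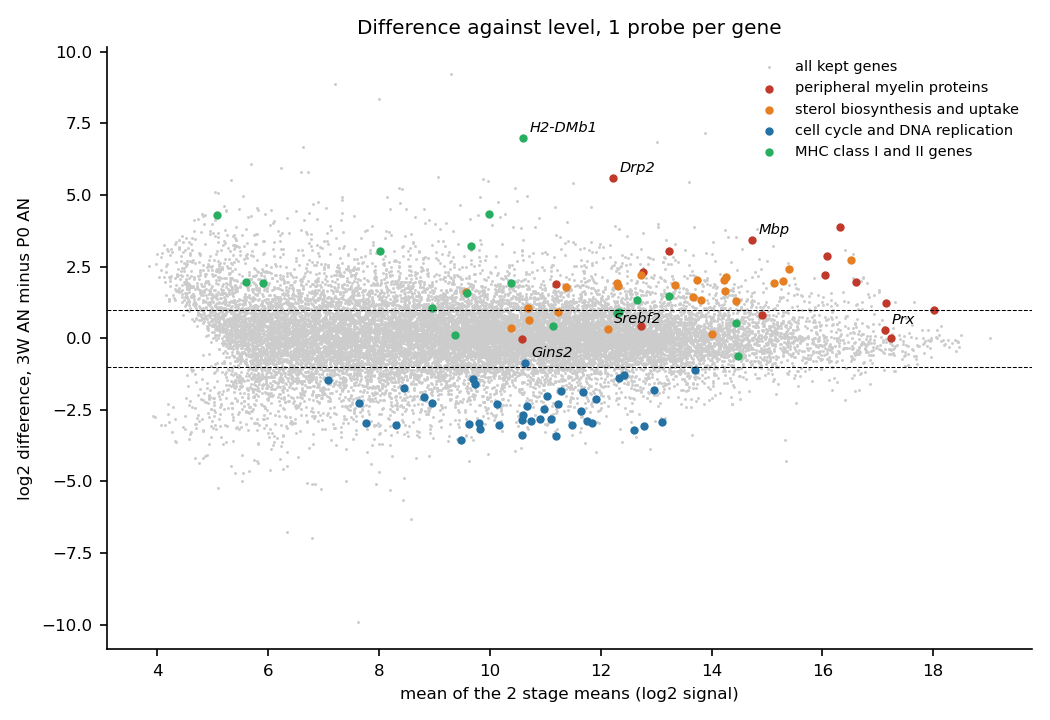
Log2 difference (y axis, 3W AN minus P0 AN) against the mean of the stage means (x axis, log2 signal) for 1 probe per gene; grey points are all kept genes, coloured points the members of 4 lists, and dashed lines mark a fold of 2. The brightest Prx probe lies at the right end at 0.29, whereas Drp2 and H2-DMb1 lie at 5.59 and 6.98.

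Enzymes that make the lipids of myelin rose with the proteins. Of 23 kept genes of sterol biosynthesis and uptake, 18 were called higher and 0 lower, with a median of 1.79, and of 20 genes of myelin fatty acid and galactolipid synthesis, 13 were higher and 0 lower, with a median of 1.22 (12 higher without 3W AN replicate 3). With all arrays 78.3% and 65% of these lists were higher, beside 15.4% of all genes. Hmgcs1, which makes HMG-CoA at the start of the pathway, read 15.42, 15.04 and 15.00 at P0 and 17.64 or more on each 3 W array, a difference of 2.73 ± 0.19 (adjusted p = 0.000213). A second Hmgcs1 probe of far lower signal differed by 0.79 ± 0.34 and was called only without 3W AN replicate 3. Sc5d, of the late steps, rose by 2.20 ± 0.24 and Idi1, of the isoprenoid steps, by 2.12 ± 0.25. Srebf2, the transcription factor that drives these genes, read 11.65, 12.03 and 12.22 at P0 and 12.16, 12.52 and 12.15 at 3 W. Its ages overlapped and its difference was 0.31 ± 0.21, with a 95% interval of -0.18 to 0.80. In 3W AN replicate 3, 22 of the 23 sterol genes read below both other 3 W arrays, and without it 19 were called.

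Ugt8a, which adds galactose to ceramide, rose by 3.28 ± 0.32, and Fa2h, which hydroxylates the fatty acids of galactolipids, by 2.70 ± 0.29. Degs2, a dihydroceramide hydroxylase and desaturase, read 4.91, 3.66 and 2.53 at P0, above background on 1 of 3 arrays, and 9.63, 9.73 and 9.11 at 3 W, a difference of 5.79 ± 0.56. Scd1, Elovl1 and Elovl6, which desaturate and lengthen fatty acids, rose by 2.18, 1.98 and 1.89. Of 12 kept transcription factors of myelination, 2 were higher (16.7%) and 1 lower (8.33%), near the 15.4% and 11.8% of all genes. The list had a median of -0.30 and 7 differences below 0, and 3 members were higher and 0 lower without 3W AN replicate 3. Egr2 (Krox20), the master regulator of myelin genes, rose by 1.52 ± 0.23 and its co-factor Nab2 by 1.71, while Nfatc4, a calcineurin-dependent factor, fell by 1.01 ± 0.31. Sox10 differed by 0.93 ± 0.25 and was called only without 3W AN replicate 3, when the difference was 1.18. Pou3f1 (Oct6), of promyelinating cells, differed by -0.25 ± 0.35.

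**Figure D3:**
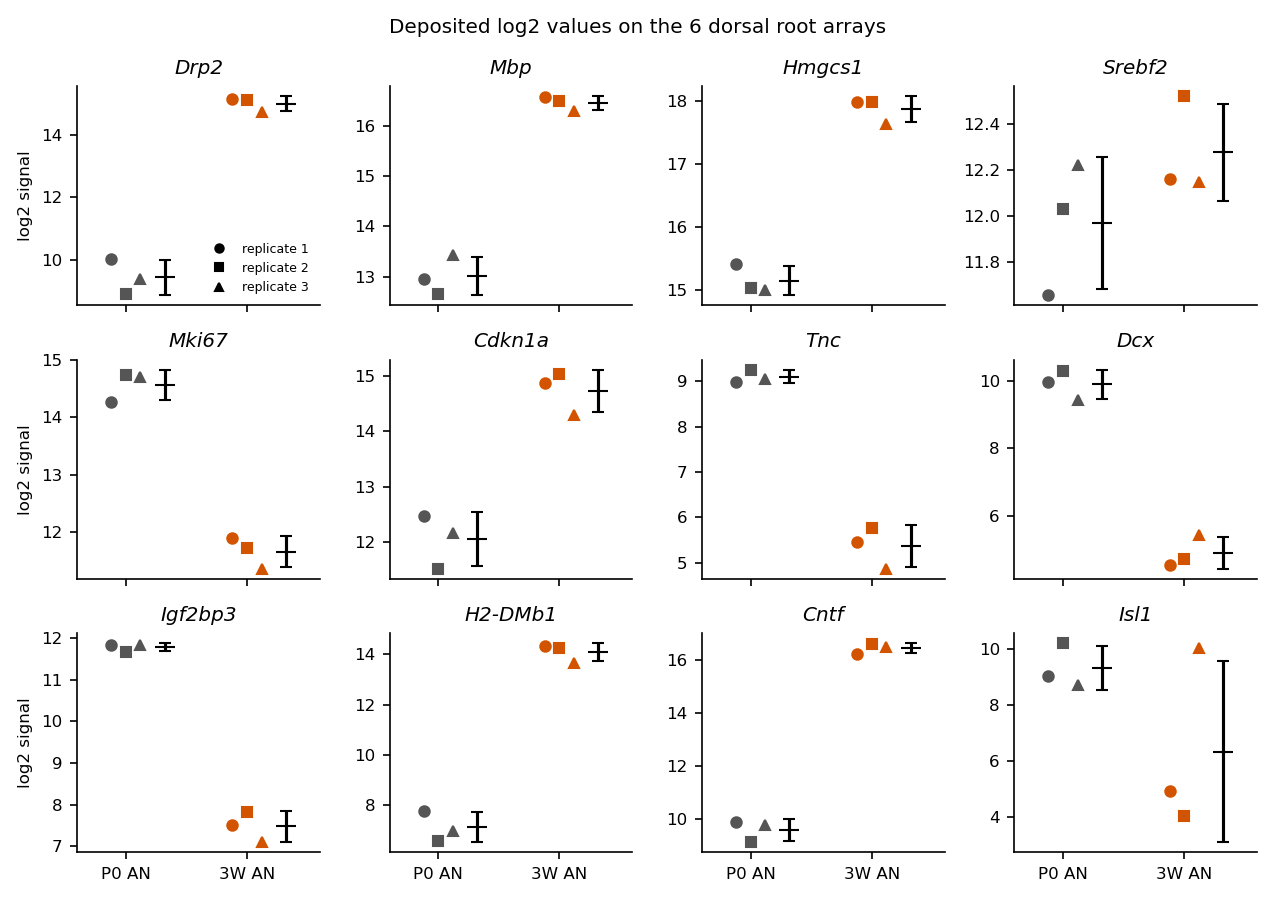
Deposited log2 signal (y axes, each on its own range) of 12 genes on the 3 P0 AN arrays (grey) and the 3 3W AN arrays (orange), with a marker shape per replicate and the mean ± SD beside each group. Drp2, Mbp, Hmgcs1, Cdkn1a, H2-DMb1 and Cntf lie higher at 3 W on every array, Mki67, Tnc, Dcx and Igf2bp3 lower, Srebf2 overlaps, and Isl1 reads 10.02 on 3W AN replicate 3 against 4.90 and 4.03 on the other two.

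Genes of the cell cycle were lower at 3 W almost without exception. Of 41 kept genes of the cycle and of DNA replication, 40 were called lower and 0 higher, beside the 11.8% of all genes called lower, and the median difference was -2.53 with all arrays and -2.63 without 3W AN replicate 3. All 40 kept their call in the fit with the slide as a block, as did all 10 myelin protein genes and 16 of the 18 sterol genes. The exception was Gins2, of the replicative helicase, at -0.88 ± 0.19, which passed on p but not on fold. Mki67, the proliferation marker Ki-67, read 14.26, 14.73 and 14.71 at P0 and 11.89, 11.72 and 11.36 at 3 W, a difference of -2.91 ± 0.21 (adjusted p = 0.000248). Ccnb1, the cyclin of mitotic entry, read 12.16, 12.40 and 12.23 at P0 and 9.02, 9.12 and 8.51 at 3 W, a difference of -3.38 ± 0.20, seen on all 4 of its kept probes. The largest fall of the list was that of Aurkb, the kinase of the chromosomal passenger complex, at -3.54, followed by Ccna2 at -3.42. Genes of mitosis lay at the low end (Cdc20 -3.20, Cdk1 -3.15, Plk1 -3.03, Top2a -2.97), and the smallest called falls were those of replication genes, Pcna at -1.12, Mcm7 at -1.27 and Mcm4 at -1.40. Mki67 was above background on all 3 W arrays, as was every cell cycle gene given here by name.

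Promoters of these cell cycle genes are shown because genes of mitosis are known to share CCAAT boxes and a TTTGAA element, the cell cycle homology region. RefSeq promoters (GRCm38.p6, 250 bases before and 50 after the start) were found for 32 of the 40 called genes. Searched on both strands, CCAAT lay in 24 of these 32 genes (75%) against 41.1% of 27025 genes with a promoter in the table and 42.0% of the kept genes. TTTGAA lay in 14 (43.8%) against 20.2% and 14.8%, and each of these 14 also held CCAAT, a pair that 7.97% of all genes in the table and 5.855% of the kept genes held. At least one of 3 E2F-type motifs was found in 6 (18.8%) against 2.68% and 4.27%. The motifs searched were TTTCGCG, then the variant TTTGGCG, and a longer form on the opposite strand, written GCGCCAAA, each match of which is also a match of the variant. These are matches of letters and not binding sites. In the promoters of Ccnb2 (chr9:70421505-70421804, minus strand), Cdc20 (chr4:118437294-118437593, minus strand) and Plk1 (chr7:122159185-122159484, plus strand), capitals mark CCAAT and TTTGAA on either strand.
Ccnb2: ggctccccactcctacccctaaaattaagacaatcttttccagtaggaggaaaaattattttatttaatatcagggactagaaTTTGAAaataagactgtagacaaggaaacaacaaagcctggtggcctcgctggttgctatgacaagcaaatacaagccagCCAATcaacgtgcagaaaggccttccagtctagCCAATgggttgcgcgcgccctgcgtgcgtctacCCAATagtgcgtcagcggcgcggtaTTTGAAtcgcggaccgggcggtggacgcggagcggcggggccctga
Cdc20: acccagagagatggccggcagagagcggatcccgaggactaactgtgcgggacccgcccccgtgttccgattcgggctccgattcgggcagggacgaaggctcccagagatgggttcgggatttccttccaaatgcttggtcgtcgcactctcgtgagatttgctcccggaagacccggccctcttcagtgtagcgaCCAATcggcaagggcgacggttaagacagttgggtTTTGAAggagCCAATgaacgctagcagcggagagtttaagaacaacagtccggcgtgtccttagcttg
Plk1: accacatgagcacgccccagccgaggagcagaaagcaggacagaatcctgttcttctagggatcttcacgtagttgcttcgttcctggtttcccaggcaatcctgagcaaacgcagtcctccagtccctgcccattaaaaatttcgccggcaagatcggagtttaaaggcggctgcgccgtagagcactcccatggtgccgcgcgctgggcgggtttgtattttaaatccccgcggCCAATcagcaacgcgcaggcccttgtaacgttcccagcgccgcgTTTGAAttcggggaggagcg
The 3 genes fell by 2.53, 3.20 and 3.03.

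For comparison, RefSeq promoters were found for 12 of the 18 sterol genes called higher, and all 12 held CCAAT, the site of NF-Y, which is known to act beside SREBP at such promoters. TTTGAA lay in 1 of them. The promoter of Hmgcs1 (chr13:119690101-119690400, GRCm38.p6, plus strand) held 4 copies, all on the opposite strand and so read here as ATTGG.
Hmgcs1: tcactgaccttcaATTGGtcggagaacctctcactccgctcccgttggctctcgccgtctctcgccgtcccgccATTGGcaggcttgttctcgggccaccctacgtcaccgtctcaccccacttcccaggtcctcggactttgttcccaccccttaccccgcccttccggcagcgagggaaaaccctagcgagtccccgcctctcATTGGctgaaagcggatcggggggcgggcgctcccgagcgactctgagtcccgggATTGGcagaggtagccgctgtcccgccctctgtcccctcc
Hmgcs1 rose by 2.73, so that CCAAT lay in promoters of lists that moved in opposite directions.

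Inhibitors of cyclin-dependent kinases moved both ways. Cdkn1a (p21) read 12.47, 11.52 and 12.17 at P0 and 14.86, 15.02 and 14.29 at 3 W, a difference of 2.67 ± 0.30, and Cdkn1b (p27) rose by 1.86 ± 0.16 and Cdkn2a by 1.56 ± 0.25, the last of which was not called with the slide as a block (0.10). Cdkn1c (p57), an imprinted inhibitor active in the embryo, read 17.07, 16.90 and 17.35 at P0 and 13.51, 13.58 and 13.56 at 3 W, a difference of -3.56 ± 0.17, and Cdkn2c (p18) fell by 1.22 ± 0.15. The other two members, Cdkn2b and Cdkn2d, differed by -0.05 and 0.04.

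Genes of the fetal growth program were lower at 3 W as a group. Of 13 genes of the Lin28, Hmga and Igf2bp group, 9 were called lower (69.2%) and 0 higher, with a median of -1.39. Over all genes 11.8% were called lower. Without 3W AN replicate 3, 7 were lower, and 4 of the 9 kept the call with the slide as a block. Igf2bp3, a fetal RNA-binding protein that binds Igf2 mRNA, read 11.84, 11.66 and 11.83 at P0 and 7.52, 7.83 and 7.09 at 3 W, a difference of -4.30 ± 0.22 (adjusted p = 0.000155), and Hmga2, a chromatin protein of growing tissue, fell by 4.12 ± 0.27. Lin28b, which blocks let-7 maturation, fell by 2.79 ± 0.66 and was above background on 2 of 3 arrays at 3 W, where it read 4.04, 5.37 and 6.88; it was among those not called with the slide as a block. Of 16 imprinted growth genes, 11 were lower (68.8%) and 0 higher, with a median of -1.65, and 13 were lower without 3W AN replicate 3. H19, a maternally expressed non-coding RNA, read 17.20, 17.63 and 17.64 at P0 and 13.25, 12.66 and 13.72 at 3 W, a difference of -4.28 ± 0.29, and its neighbour Igf2, a fetal growth factor, fell by 3.37 ± 0.32. Mest fell by 3.33 and Dlk1, a Notch-like ligand, by 2.88. Gnas and Sgce differed by -0.20 and 0.66. Of the insulin-like growth factor system, which these genes feed, the receptor Igf1r differed by 0.08 and Igf1 by 0.50 on the brightest of its 3 probes, the other two of which were called lower, while the binding protein Igfbp2 fell by 2.26.

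Genes of immature Schwann cells were mostly lower. Of 15 members, 8 were called lower (53.3%) and 1 higher (6.67%), beside 11.8% and 15.4% of all genes, with a median of -1.16. Tnc (tenascin C), a matrix glycoprotein of developing nerve, read 8.98, 9.26 and 9.06 at P0 and 5.46, 5.76 and 4.86 at 3 W, a difference of -3.74 ± 0.25, with 2 of 3 arrays above background at 3 W. Ednrb, the endothelin B receptor, fell by 3.66 ± 0.21, and Id2, an inhibitor of differentiation factors, by 2.09 ± 0.17. Ncam1, a cell adhesion molecule of immature and non-myelinating Schwann cells and of axons, fell by 1.69 ± 0.14, Pax3 by 1.63 ± 0.20 and Sox2, a repressor of myelination, by 1.41 ± 0.18. Cdh19, a cadherin of Schwann cell precursors, rose by 1.13 ± 0.15. Jun, which opposes Egr2, differed by 0.28 ± 0.25, and Ngfr (p75) by 0.03 ± 0.55, with its 2 highest values on P0 AN replicate 2 (14.51) and 3W AN replicate 3 (14.50). Gap43, which Schwann cells and growing axons share, read 13.15, 14.33 and 12.87 at P0 and 9.77, 9.74 and 12.73 at 3 W, so that its fall of 2.70 was 3.70 without 3W AN replicate 3. Pax3 and Gap43 were not called with the slide as a block (-0.96 and -1.75).

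Among 18 enzymes and readers of DNA methylation and Polycomb marks, 5 were higher (27.8%) and 1 lower (5.56%), beside 15.4% and 11.8% of all genes. The median difference of the list was -0.14, with 9 differences above 0 and 9 below. Cbx7, a Polycomb reader of differentiated cells, read 7.26, 7.24 and 7.08 at P0 and 11.02, 11.17 and 10.79 at 3 W, a difference of 3.80 ± 0.16 (adjusted p = 0.000116), although its second, dimmer probe differed by only 0.67 ± 0.19. Ezh1, the methyltransferase of resting cells, rose by 2.04 ± 0.18 on all 3 of its kept probes, Cbx8 by 1.77 (0.93 and not called with the slide as a block) and Dnmt3a by 1.09. Ezh2, its counterpart in dividing cells, differed by -0.66, and Uhrf1, which guides maintenance methylation during replication, fell by 2.64 ± 0.28.

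Of 19 kept genes of the node of Ranvier and its flanks, 5 were higher (26.3%) and 1 lower (5.26%), beside 15.4% and 11.8% of all genes. Nfasc, whose isoforms lie on the axon at the node and on glia at the paranode, rose by 3.58 ± 0.29, with 2 of its 4 kept probes called. Cadm3 rose by 3.28 ± 0.20 and Gldn (gliomedin), which Schwann cell microvilli secrete at the node, by 2.79 ± 0.34. The juxtaparanodal potassium channel Kcna1 read 14.01, 12.91 and 13.51 at P0 and 16.20, 16.39 and 16.10 at 3 W, a difference of 2.76 ± 0.29, and Kcna2 rose by 1.66 ± 0.17. The nodal sodium channel Scn8a fell by 1.21 ± 0.15 (-0.72 and not called with the slide as a block), and Cntnap1, of the axonal paranode, differed by 0.09. Without 3W AN replicate 3, 6 members were higher and 5 lower. Of 29 voltage-gated and related channels, 4 were higher (13.8%) and 3 lower (10.3%), near the shares over all genes of 15.4% and 11.8%. Without that array 4 were higher and 10 lower. Kcnk1, a leak potassium channel, rose by 4.97 ± 0.26 and the sodium-sensing channel Scn7a of glia, above background on 2 of 3 arrays at P0, by 3.34 ± 0.33.

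Among ligands and receptors of axon guidance, genes were called in both directions. Of 31 semaphorins, plexins and neuropilins, 9 were higher (29.0%) and 5 lower (16.1%), beside 15.4% and 11.8% of all genes, and 8 and 7 without 3W AN replicate 3. The called genes were led by Sema6c at 2.95 ± 0.20, Sema5a at 2.83 ± 0.20 and Sema4d at 2.71 on one side and by Sema6a at -2.34 and Sema3a, a repellent of sensory axons, at -1.93 on the other. Of 21 ephrins and Eph receptors, 2 were higher (9.52%) and 9 lower (42.9%), with a median of -0.76, and 3 and 9 without 3W AN replicate 3. Kept probes of Epha10 were called in opposite directions. The ligand Efna5 read 12.69, 12.77 and 12.69 at P0 and 10.10, 9.92 and 10.98 at 3 W, a difference of -2.38 ± 0.29, and the receptor Ephb2 fell by 2.35 ± 0.38. In the desert hedgehog pathway, which Schwann cells use to signal to perineurial cells, Dhh itself differed by 0.73, Cdon rose by 1.65, and 5 of 13 members were lower, among them the transcription factor Gli3 (-2.24), and 4 without 3W AN replicate 3. With all arrays 38.5% of this list were lower and 7.69% higher.

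Genes of antigen presentation were higher at 3 W. Of 18 MHC class I and II genes, 12 were called higher and 0 lower, with a median of 1.52. H2-DMb1, which loads peptide onto MHC class II, read 7.76, 6.58 and 6.98 at P0 and 14.32, 14.27 and 13.67 at 3 W, a difference of 6.98 ± 0.34 (adjusted p = 0.000142). H2-DMa, its partner chain, rose by 4.33. H2-Aa, a class II chain, was above background on no P0 array and at least 5.75-fold higher at 3 W, and the invariant chain Cd74 rose by 3.05 ± 0.18. The class I chain H2-K1 rose by 1.46 ± 0.17, and B2m differed by 0.53 ± 0.18. Of 18 macrophage markers 10 were higher and 0 lower, with a median of 1.02, and 15 were higher without 3W AN replicate 3. Cd163 rose by 1.87, Adgre1 by 1.70 and Csf1r by 1.07, while Cd68 differed by 0.08. The summed level of the macrophage list, the log2 of its members' added linear signals, ran from 15.20 to 15.45 at P0 and from 16.14 to 16.73 at 3 W, so that it rose together with the MHC genes. Its part in the MHC result was not tested. Of 27 interferon-stimulated genes 11 were higher and 0 lower, with a median of 0.90 (12 higher without 3W AN replicate 3), among them Usp18 at 1.92 ± 0.39 and Ifit3 at 1.83 ± 0.30. With all arrays 66.7% of the MHC, 55.6% of the macrophage and 40.7% of the interferon list were higher, beside 15.4% of all genes. In the fit of 24 arrays with the slide as a block, 1 of these 11 interferon-stimulated genes kept its call, as did 8 of the 12 MHC genes and 6 of the 10 macrophage markers. For none of these lists can slide and age be told apart within the arrays compared. Of 7 kept mast cell markers 3 were lower (42.9%), 0 higher and 4 not called, beside 11.8% of all genes called lower. Only 4 of the 7 were above background on all 6 arrays, and 1 of these was called lower. The protease Cma1 differed by -2.39 ± 0.27 and Mcpt4 by -3.36 ± 0.62. Mcpt4 was above background on 1 of 3 arrays at 3 W, and was not called with the slide as a block. Cpa3 was at least 4.81-fold lower, since it was above background on no 3 W array.

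Of 15 endothelial and barrier markers, 4 were higher (26.7%), all of them transporters of barrier vessels, and 4 were lower (26.7%). The shares over all genes were 15.4% and 11.8%, and the median difference of the list was -0.48. Without 3W AN replicate 3, 5 were higher and 3 lower. Kept probes of Flt1, of this list, were called in opposite directions. Slco1a4, an organic anion transporter of barrier endothelium, read 6.26, 5.65 and 5.90 at P0 and 10.57, 10.60 and 10.20 at 3 W, a difference of 4.51 ± 0.21 with 2 of 3 P0 arrays above background, and Mfsd2a, a lipid transporter that keeps transcytosis low, rose by 2.89 ± 0.22. Plvap, of leaky vessels, fell by 2.86 ± 0.44 and the junction cadherin Cdh5 by 1.92 ± 0.15. In the matrix, 4 of 39 collagen chains were higher (10.3%) and 12 lower (30.8%), beside 15.4% and 11.8% of all genes, and 5 and 12 without 3W AN replicate 3. Col15a1, of nerve basement membranes, rose by 3.16 ± 0.47, the fibril chains Col1a1 and Col3a1 differed by -0.78 and -0.83, and Col2a1, the main chain of cartilage, fell by 3.61 ± 0.18. Of 11 small leucine-rich proteoglycans 5 were higher (45.5%), with Ogn (osteoglycin) at 3.80 ± 0.17 and Dcn (decorin) at 1.51. Aspn was the 1 lower member (9.09%) at -1.72 ± 0.24, and without 3W AN replicate 3, 2 were lower. Of 20 laminins and basal lamina receptors 2 were higher and 3 lower, near the 15.4% and 11.8% of all genes, and 2 and 2 without 3W AN replicate 3. Lama5 (1.39) and Itgb4 (1.19), the integrin of mature myelinating Schwann cells, were higher. Lama1 (-2.58), Lama4 (-1.13) and Nid2 (-1.42) were lower.

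Large sets of housekeeping genes had few calls. Of 70 nuclear genes of oxidative phosphorylation 2 were higher and 1 lower with a median of 0.05, and of 58 cytosolic ribosomal protein genes 1 was higher and 1 lower with a median of -0.23 (0 lower without 3W AN replicate 3). Over all genes 15.4% were higher and 11.8% lower.

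Genes of neurons depended on 3W AN replicate 3. Of 25 kept markers of sensory neuron cell bodies, 2 were called higher and 1 lower with all arrays, and 2 and 14 without replicate 3, when the median went from -0.61 to -1.56. Of 12 neurofilament and axon cytoskeleton genes, 1 was lower with all arrays and 7 without, and of 33 SNARE and synaptic vesicle genes 1 and 14. Over all genes 11.8% were lower with all arrays and 14.6% without replicate 3. Isl1, a transcription factor of sensory neurons, read 9.01, 10.20 and 8.71 at P0 and 4.90, 4.03 and 10.02 at 3 W. Nefl, the light neurofilament chain, read 14.75, 16.15 and 14.73 at P0 and 13.66, 12.93 and 18.03 at 3 W. In both genes replicates 1 and 2 at 3 W were below every P0 array and replicate 3 was with or above them. Calca, which encodes the peptide CGRP, read 16.50 on replicate 3 against 11.32 and 10.74. On replicate 3, 23 of the 25 cell body markers and all 12 axon cytoskeleton genes read above both other 3 W arrays. The excess was not limited to sensory neuron genes. Of 7 kept motor neuron and cholinergic markers, 1 was higher and 1 lower with all arrays, and 1 and 4 without replicate 3. Their mean level was 10.4 on replicate 3 against 8.29 and 8.35 on the other 3 W arrays. The summed level of the cell body list was 15.81 to 16.95 at P0 and 16.63, 15.87 and 18.06 at 3 W. Markers of cell bodies were thus measured in samples labelled as fibres, and where they came from was not tested.

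**Figure D4:**
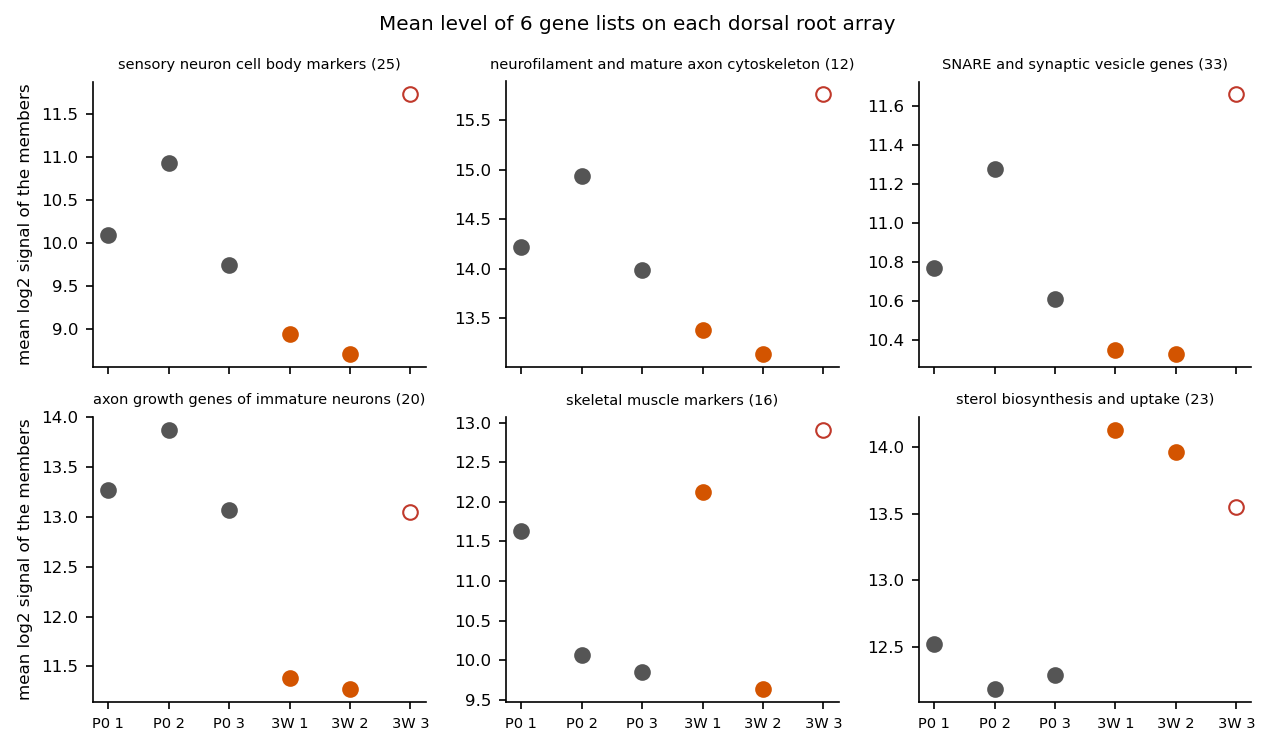
Mean log2 signal (y axes, each on its own range) of the kept members of 6 lists on the 3 P0 arrays (grey) and the 3 3 W arrays (orange, replicate 3 open). Replicate 3 is highest for sensory neuron, axon cytoskeleton and SNARE genes (11.73, 15.76 and 11.66), lies near the P0 arrays for axon growth genes, and is the lowest 3 W array for sterol genes (13.55).

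Genes of growing axons were lower also with all arrays. Of 20 members, 10 were called lower (50%) and 1 higher (5%) with all arrays, beside 11.8% and 15.4% of all genes. The median was -1.33, and 16 were lower without replicate 3. With the slide as a block 7 of the 11 kept their call. Dcx (doublecortin), a microtubule protein of young neurons, read 9.96, 10.29 and 9.42 at P0 and 4.56, 4.76 and 5.45 at 3 W, a difference of -4.97 ± 0.31 (adjusted p = 0.000185), with 2 of 3 arrays above background at 3 W. Sox11, a transcription factor of axon growth, fell by 3.69 ± 0.27, and Crmp1, which carries semaphorin signals, by 3.00 ± 0.78. For these 3 genes every 3 W array, replicate 3 included, was below every P0 array. Stmn1, a microtubule-binding protein, rose by 1.02. Crmp1 and Stmn1 were not called with the slide as a block (-1.71 and 0.86). Sncg (gamma-synuclein) rose by 1.91 ± 0.35. The parvalbumin gene Pvalb, a member of the cell body list and not of this one, rose by 2.85 ± 0.73. Signal of muscle genes also varied among these arrays, as given below, and which cells the Pvalb signal came from was not tested.

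Genes that the study also followed by RT-qPCR had these values on the arrays. Npy, a peptide of sympathetic and injured sensory neurons, read 10.21, 9.35 and 9.56 at P0 and 7.28, 7.74 and 6.72 at 3 W, a difference of -2.46 ± 0.33. Unc13c, which primes synaptic vesicles, read 10.34, 10.54 and 10.86 at P0 and 8.07, 8.70 and 8.59 at 3 W, a difference of -2.13 ± 0.23. Gabrb2, a GABAA receptor subunit, fell by 2.38 ± 0.53 and Ncam1 as given above. Every 3 W array lay below every P0 array for these 4 genes. With the slide as a block in the fit of 24 arrays, Npy (-0.72) and Gabrb2 (-1.57) were not called. Nlgn1, a postsynaptic adhesion protein, differed by -0.90 ± 0.15. Slit2, a guidance ligand, differed by 0.45 ± 0.17 on its brightest probe (95% interval 0.04 to 0.86), while its dimmest kept probe fell by 3.12 ± 0.40 from signals of 6.42 or less.

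Several lists of other tissues changed as well. Of 13 oligodendrocyte markers 6 were higher (46.2%) and 1 lower (7.69%), beside 15.4% and 11.8% of all genes. Mobp, a myelin protein of oligodendrocytes, read 12.17, 11.99 and 12.37 at 3 W and was above background on no P0 array, so that it was at least 178-fold higher at 3 W. Hapln2 and Opalin, likewise on no P0 array above background, were at least 2.16-fold and 1.71-fold higher. Mog, which oligodendrocytes carry on the outer myelin surface, differed by 0.61 ± 0.17, Olig2 by -0.59, and Cldn11 fell by 1.11 ± 0.18. The summed level of the list was 15.87 to 15.95 at P0 and 15.53 to 15.93 at 3 W, so that this sum, which the brightest members dominate, overlapped. Dim and bright genes add equally to the mean log2 level over the 13 members. This mean was 7.74 ± 0.10 (SD, n = 3) at P0 and 9.17 ± 0.05 at 3 W. Only 8 of the 13 members were above background on all 6 arrays, of which 2 were called higher and 1 lower. The others entered the mean with signals below background on some arrays, so that its gap between the ages is not a measured size. Of 5 markers of boundary cap cells, which line the root where it enters the spinal cord around birth, 3 were lower (60%) and 1 higher (20%). Prss56, a protease of these cells, read 9.76, 10.97 and 10.07 at P0 and was above background on no 3 W array, at least 46.9-fold lower. Wif1 fell by 3.00 ± 0.28 and Hey2 by 2.14 ± 0.55, while Egr2, which myelinating Schwann cells also use, rose as given above. Cldn11 and Hey2 were not called with the slide as a block (-0.06 and -1.02).

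Genes of skeletal muscle varied within an age. The summed level of 16 muscle markers was 17.56, 16.64 and 16.32 at P0 and 17.68, 15.11 and 18.29 at 3 W, and replicate 3 was above both other 3 W arrays for all 16. Myh4, the fast adult myosin, read 7.60, 3.89 and 2.58 at P0 and 15.17, 11.23 and 15.30 at 3 W, the largest fitted rise of all called genes at 9.21 ± 1.55. The embryonic myosin Myh3 read 11.75, 10.05 and 9.66 at P0 and 5.79, 2.83 and 7.55 at 3 W, a fall of 5.10 ± 1.18. In each pair of values the ages did not overlap although the arrays of 1 age lay far apart, and Myh4 at P0 and Myh3 at 3 W were above background on 2 of 3 arrays. A list of 14 cartilage and bone genes, put together after the values were seen, held 8 genes called lower and 0 higher, with Acan (aggrecan) at -5.06 and Col10a1 at -5.26, each above background on 1 of 3 arrays at 3 W. A list of 7 genes of proteins secreted by liver, also put together afterwards, held 5 lower. These were 57.1% of the cartilage and bone list and 71.4% of the liver list, beside 11.8% of all genes. Afp (alpha-fetoprotein) read 8.46, 13.15 and 7.55 at P0, and its summed list read 15.98 on P0 AN replicate 2 against 12.79 and 12.20 on the other two. How transcripts of muscle, cartilage and liver came into the samples was not tested. The summed adipocyte list read 15.92 on P0 AN replicate 3 and 11.59 to 13.22 on the 5 other arrays, and its 2 falls (Fabp4 and Retn) were not called without 3W AN replicate 3.

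Over all genes, the largest fitted differences were taken among called genes with a symbol whose ages did not overlap and which were also called without 3W AN replicate 3. The 12 largest fitted rises were those of Myh4, Fgf4, Mobp, Fam178b, H2-DMb1, Cntf, Them5, Cyp4f14, Degs2, Drp2, Ccdc37 and Klk6. Fgf4, Mobp, Them5 and Klk6 were above background on no P0 array, so that their place in this order was not measured. Them5 and Klk6 were bounded at 4.43 and 3.40, below the 4.97 of Kcnk1. Cntf, the ciliary neurotrophic factor of myelinating Schwann cells, read 9.90, 9.13 and 9.78 at P0 and 16.23, 16.61 and 16.49 at 3 W, a difference of 6.84 ± 0.24 (adjusted p = 0.000103). Fgf4, a fibroblast growth factor, read 11.85, 11.68 and 11.40 at 3 W and was above background on no P0 array, at least 123-fold higher. Fam178b rose by 7.15 ± 0.33 to 17.16 or more on each 3 W array, and Klk6, a kallikrein protease of myelinating glia, was at least 10.6-fold higher. Among the 12 largest fitted falls were those of Prss56, Afp, Sln, Ahsg, Col10a1, Fkbp11, Myh3, Ibsp, Acan, Dcx and Krt8. Of these, Afp and Ahsg are genes of liver, Sln and Myh3 of muscle, and Col10a1, Ibsp and Acan of cartilage and bone. Fkbp11 read 7.41, 7.75 and 7.96 at P0 and 2.48 on each 3 W array, at least 7.95-fold lower, and Krt8 was at least 8.14-fold lower. These bounds, of 2.99 and 3.03 on the log2 scale, are smaller than the measured falls of Igf2bp3 and H19, so that the place of Fkbp11 and Krt8 among the largest falls was not measured. Prss56 and Afp were also above background on no 3 W array.

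Whether the change with age differed from that in the ventral root was tested as an interaction over the 12 arrays of both roots at P0 and 3 W. Of 35257 probes, 218 were called (0.618%), of which 139 changed more positively in the dorsal root and 79 less so. In 60 of the 218 a group was above background on no array, and the size of these interactions was not measured. None of the brightest probes of the myelin, sterol, MHC, macrophage or cell cycle genes was among them, and the medians of these lists in the ventral root were 1.15, 1.51, 1.75, 1.63 and -2.24, beside 1.92, 1.79, 1.52, 1.02 and -2.53 in the dorsal root. A p value above the threshold does not show that the roots changed alike. Calb1, the calcium buffer calbindin, differed by 1.02 in the dorsal root, where 3W AN replicate 3 read 10.26 against 8.38 and 8.24. In the ventral root it was at least 9.97-fold lower, since no 3 W array was above background there. The interaction of Calb1 was 4.69 ± 0.66 in the fit (adjusted p = 0.0149) and 4.04 without 3W AN replicate 3. By the ventral bound it was at least 4.34 for the dorsal change of all arrays, which includes replicate 3. Sytl3, a synaptotagmin-like protein of vesicle transport, read 10.88, 11.24 and 10.88 at P0 and 10.93, 11.21 and 11.39 at 3 W in the dorsal root, and changed by -3.16 in the ventral root (interaction 3.33 ± 0.47). On the other side Slit2 changed by 0.45 in the dorsal and by 2.71 in the ventral root (interaction -2.26 ± 0.21, adjusted p = 0.00337), and Plk5, a polo-like kinase without mitotic role, by 2.67 and 5.30 (interaction -2.63 ± 0.25). Vwa5b2 changed by -1.12 and 1.46. Of immature Schwann cell genes, Ncam1, Pax3, Id2 and Chl1 were called, with interactions of 1.24, 2.04, 1.16 and 1.59, and the median of that list was -1.16 in the dorsal and -2.19 in the ventral root.

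The position of 3 weeks within the course was read from the 1 W and 5 W arrays of the dorsal root, as a description, since all comparisons share the P0 arrays. The mean level of the sterol genes was 12.33 ± 0.17 (SD, n = 3) at birth, then 14.15 ± 0.06, 13.88 ± 0.30 and 14.08 ± 0.21 at the 3 later ages, and that of the myelin proteins 13.85 ± 0.31, 15.49 ± 0.09, 15.78 ± 0.12 and 15.91 ± 0.07. Both had thus reached most of their 3 W level by 1 W. The cell cycle genes stood at 11.88 ± 0.14 at P0, 9.45 ± 0.24 at 3 W and 8.55 ± 0.21 at 5 W, with a median change of -0.88 at 1 W, and the imprinted growth genes went from 13.35 ± 0.21 to 12.21 ± 0.26, 11.47 ± 0.11 and 10.92 ± 0.28, with values at 5 W still below those at 3 W. The MHC genes stood at 9.22 ± 0.08, 10.75 ± 0.20, 11.19 ± 0.17 and 12.23 ± 0.13. Single genes followed other courses. Degs2 and Klk6 read 4.47 and 2.56 at 1 W, where Degs2 was above background on 1 of 3 arrays and Klk6 on none, and 9.49 and 8.10 on average at 3 W, and Cbx7 8.32 and 10.99, whereas Hmgcs1 read 17.57 at 1 W and 17.88 at 3 W.

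**Figure D5:**
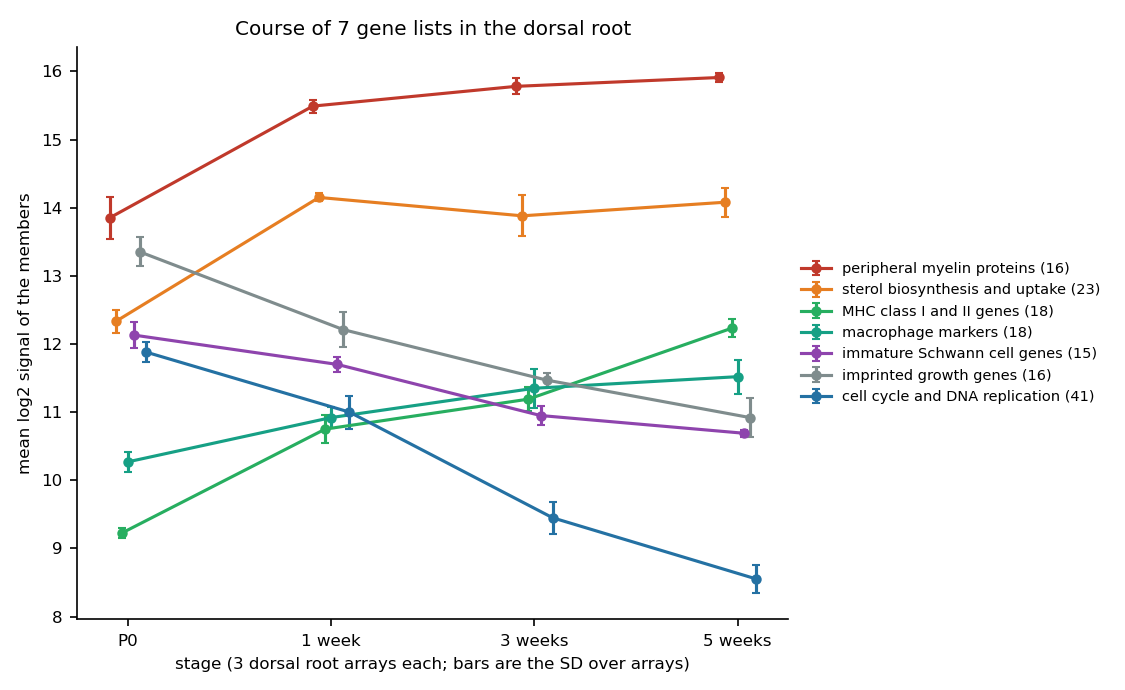
Mean log2 signal (y axis) of the members of 7 gene lists in the dorsal root at P0, 1 week, 3 weeks and 5 weeks (x axis); points are means over 3 arrays, bars the SD over arrays, and brackets give the number of genes. Myelin and sterol genes rise mainly before 1 week (13.85 to 15.49 and 12.33 to 14.15), while cell cycle genes fall through all stages, from 11.88 to 8.55.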

How the data were processed

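Gene expression was measured on 24 one-colour Agilent mouse oligonucleotide arrays (3 per group), of which the 3 P0 AN and 3 3W AN arrays were compared here and the others served for the interaction and the course. Per the labels and methods, the authors extracted array signals with Feature Extraction 10.7.1.1 and quantile normalized them in GeneSpring. The deposited value table holds log2 values with a median of 6.32 on every array, which correlated at 0.995 to 1.00 with the log2 of the deposited scanner intensity. Quantile normalization sets the same distribution on each array, so that a shift shared by most genes is not seen. Gene names were those of the array design in the deposited scanner files and can be old.

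Probes well above background on all 3 arrays of either age were kept, control spots were left out, and the brightest kept probe stood for a gene. Group means were fitted with limma 3.58.1 (R 4.3.3, lmFit and eBayes, two-sided, 4 residual and 6.75 total degrees of freedom), with Benjamini-Hochberg adjustment over all kept probes. ± after a difference is the standard error of this fit. The fit was tested on simulated data. A gene not above background on any array of 1 age was given as a bound, the mean of the brighter age against, per array, the higher of the lowest signal among probes well above background and the probe's own signal. Named genes were the 12 largest rises and falls, the RT-qPCR genes, 6 interaction genes in each direction and members of the lists. The members of the comparison and the lists were chosen with earlier results of these data known, and 2 lists (cartilage and bone, liver) after the values were seen. Promoters were RefSeq sequences of GRCm38.p6. Probe positions were mm9, from the scanner files. Alternatives were other scalings, background corrections and filters, the replicate number or slide as a block, array weights and leaving out each array. A few genes are not reported here.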

Additional observations from a re-analysis of the deposited data

Results flagged for a closer look

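For 12 genes the fitted change from P0 to 3 W differed between dorsal and ventral root by the test of the interaction itself, as the difference of the log2 changes (dorsal minus ventral). Only genes also called without 3W AN replicate 3 were taken, so that this holds for all 12 by choice and is not a result. In 5 of them a group was above background on no array, and the fitted value then rests on signals below background and is not a measured size. Bounds on a difference between the roots take the dorsal change of all arrays, 3W AN replicate 3 included.

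In 6 of them the dorsal change was the more positive. Sytl3 had an interaction of 3.33. Calb1 had one of 4.69 (4.04 without 3W AN replicate 3), and of at least 4.34 by its bound with all arrays. Serpinb1b, a serpin, had one of 4.55, with a dorsal change of 2.35 and a ventral fall of at least 2.53-fold, which give at least 3.69. Pcdh8, a protocadherin, had one of 3.91 (3.51 without 3W AN replicate 3). It changed by -0.65 in the dorsal root and fell at least 6.20-fold in the ventral root, which give at least 1.98 with all arrays. Nme8 had one of 3.71, was at least 1.87-fold higher at 3 W in the dorsal root and was above background at neither age in the ventral root, so that no ventral change and no difference between the roots was measured for it. Tcerg1l had one of 3.61 (2.96 without 3W AN replicate 3). It changed by -1.22 in the dorsal root and fell at least 8.01-fold in the ventral root, which give at least 1.78 with all arrays.

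In the other 6 the ventral change was the more positive. Fgl2, a fibrinogen-like protein, had an interaction of -2.65 (1.24 dorsal, 3.89 ventral), Plk5 of -2.63, Vwa5b2 of -2.57, Lect1 (chondromodulin) of -2.46 (0.98 and 3.44), Slit2 of -2.26 and Akr1b3, an aldose reductase, of -1.996 (-0.03 and 1.97). For Slit2 the ventral arrays read 10.41, 10.05 and 10.41 at P0 and 13.08, 12.86 and 13.05 at 3 W, while all 6 dorsal arrays lay between 11.51 and 12.19.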

How the results depend on the processing

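Of 9389 called probes (5126 higher, 4263 lower, 54.6% higher), normexp background correction left 5775 (2982 higher, 2793 lower), and probes above background on every array gave 3257 higher and a share of 48.4% higher. The other settings kept these counts within 1.5 times, and leaving out 1 array gave 8502 to 10515 probes (4436 to 5583 higher, 3805 to 4932 lower) and 4763 to 5977 genes. The 218 interaction probes became 141 with normexp, 101 without a filter, 130 with the replicate block, 409 with array weights and 1445 at an unadjusted p, and 79 to 325 with 1 array left out, namely 94 without P0 AN replicate 2, 79 without P0 AN replicate 3, 129 and 114 without 3W AN replicates 1 and 2. Without 3W AN replicate 3 they were 325. Deviations from the group mean correlated at 0.195, -0.269 and -0.176 between 3W AN and P0 AN arrays of the same replicate number, and the replicate block left 9273 probes. Whether AN and EN arrays of the same age and replicate number deviated together was not tested, and the main interaction fit took them as unpaired.

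Of 349 called genes of the lists and named genes, 338 kept their call with the replicate block, 302 with normexp, 326 with scaling to the 75th percentile and 255 with the slide as a fixed block in 24 arrays. With this slide block 10 turned direction, among them at 0.45 (Cbln1), 2.32 (Dct), 0.23 (Erbb4), 0.44 (Grin2d), 0.47 (Grin3a), 0.33 (Kcnd2), -0.34 (Mx1), -0.36 (Pi16) and 0.32 (Trim71). Of genes described above, Cbx8 (0.93), Cdkn2a (0.10), Cldn11 (-0.06), Crmp1 (-1.71), Fabp4 (-2.08), Gap43 (-1.75), Hey2 (-1.02), Ifit3 (0.59), Lin28b (-1.82), Mcpt4 (-1.57), Pax3 (-0.96), Retn (-2.02), Scn8a (-0.72), Stmn1 (0.86) and Usp18 (0.09) lost the call there. Npy and Gabrb2 lost it as well, with the values given above. The interactions of Serpinb1b, Tcerg1l, Lect1 and Akr1b3 were not called with the replicate block, nor those of Calb1, Pcdh8, Nme8 and Tcerg1l with normexp. The cause of these changes was not tested. Dim probes at 3 W were limited by signal over background, so that 284 called genes have only a bound.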
